A study of Mus musculus with 1920 samples.

Results

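Galnt genes encode the polypeptide GalNAc-transferases, the Golgi enzymes that start mucin-type O-glycosylation. The 9 members described here, Galnt1, Galnt2, Galnt3, Galnt4, Galnt6, Galnt7, Galnt10, Galnt11 and Galnt12, were taken by name from a deposited count table of 55471 genes. They were followed across single intestinal stem cells (ISCs) of 3 young and 4 old mice. The set was built around Galnt12, which was picked because its level differed between the ages, so its age values are given as a description with no test. Each cell was 1 well of a plate with reads counted per gene. All mice carried the Lgr5tm1(cre/ERT2)Cle allele (B6.129P2-Lgr5tm1(cre/ERT2)Cle/J), which marks Lgr5-expressing crypt base cells with GFP and is itself a knock-in at the Lgr5 gene. Young and old are the labels' own words, and the age of the sequenced mice in weeks is not given in the sources used here. No treatment was named for these cells.

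Of 1920 sorted wells, 1836 had at least 1000 detected genes and were kept, 906 from young and 930 from old mice. A kept cell held a median of 305492 reads and 9398.5 detected genes, and the mice held 49447464 to 134408884 reads each. The defining ISC marker Lgr5 had a read in 93.1 to 99.5% of the kept cells of every mouse, which fits the label of the sort. Marker lists of other crypt cells nevertheless led in some wells. In 130 cells the Paneth list, in 86 the enterocyte list and in 53 the goblet list had the highest mean of 8 lists, against 1550 cells led by ISC markers. Paneth-led cells made up 1.86 to 6.88% of the cells of the young mice and 6.88 to 12.9% of those of the old mice.

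Mucin-type O-glycosylation begins when a Galnt enzyme moves N-acetylgalactosamine (GalNAc) from UDP-GalNAc to a serine or threonine of a protein passing through the Golgi. Core enzymes, such as C1galt1 and the Gcnt family, then build on that sugar, and sialyl- and fucosyltransferases cap the chains. Galnt1, Galnt2, Galnt3 and Galnt6 act on unmodified peptides, whereas Galnt7 and Galnt10 prefer peptides that already carry GalNAc, and Galnt4 and Galnt12 can use both. In the gut these glycans coat the secreted mucin of goblet cells and the membrane mucins of enterocytes, and inherited GALNT12 variants have been studied in human colorectal cancer.

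The members are related but clearly different in coding sequence. Over aligned coding bases (GENCODE M21, GRCm38), the 36 pairs were between 55.8% (Galnt6 and Galnt7) and 65.4% (Galnt3 and Galnt6) identical. Galnt12 shared its longest identical run, 19 bases, with Galnt4, and the longest run in any pair was 23 bases, between Galnt4 and Galnt6. The 60-base coding stretch of Galnt12 that was on average most alike in the others shows how far they resemble each other at their closest. It lies in exon 2 of Galnt12, at chr4:47104146-47104205 on the plus strand. Capitals mark bases identical to Galnt12, each sequence runs 5′ to 3′, and Galnt1 is not shown:
Galnt12: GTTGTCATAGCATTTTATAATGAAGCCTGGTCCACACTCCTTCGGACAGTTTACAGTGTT
Galnt4: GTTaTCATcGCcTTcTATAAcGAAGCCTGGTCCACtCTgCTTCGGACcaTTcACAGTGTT
Galnt3: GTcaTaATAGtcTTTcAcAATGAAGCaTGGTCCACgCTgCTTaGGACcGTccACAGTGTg
Galnt6: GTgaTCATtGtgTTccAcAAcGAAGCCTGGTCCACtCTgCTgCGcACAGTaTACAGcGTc
Galnt7: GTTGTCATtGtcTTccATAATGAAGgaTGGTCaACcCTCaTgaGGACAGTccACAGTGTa
Galnt10: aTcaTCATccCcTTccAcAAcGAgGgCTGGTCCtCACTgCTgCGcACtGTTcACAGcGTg
Galnt11: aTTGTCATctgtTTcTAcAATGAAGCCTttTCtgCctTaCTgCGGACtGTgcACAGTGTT
Galnt2: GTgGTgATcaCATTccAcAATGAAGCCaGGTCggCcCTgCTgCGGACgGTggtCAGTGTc
Galnt4 matched Galnt12 at 50 of the 60 bases, Galnt3 and Galnt7 at 45 each, Galnt6 at 44, Galnt2 and Galnt11 at 42 each and Galnt10 at 40. In this stretch Galnt4 was thus the member closest to Galnt12, and it is encoded by a single coding exon where Galnt12 has 10.

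Galnt12 (ENSMUSG00000039774, chr4:47091909-47123070, plus strand) was the most abundant of the members per length of all annotated exons and held 56221 reads over all kept cells. In counts not divided by length, Galnt7 was the higher in each young mouse. Levels are given as counts per 1000000 reads (CPM), summed over the cells of a mouse. Galnt12 was at 58.7, 63.9 and 38.7 CPM in young mice 1 to 3. It was 113, 116, 130 and 129 CPM in old mice 1 to 4. Every old mouse lay above every young mouse, and the lowest old value was 1.77 times the highest young value. The group means were 53.8 ± 13.3 (SD, n = 3) and 122 ± 8.54 CPM (SD, n = 4), a log2 fold change of 1.24 (SE 0.19) in edgeR. Since Galnt12 was chosen by this contrast, no p-value is attached to it.

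**Figure D1:**
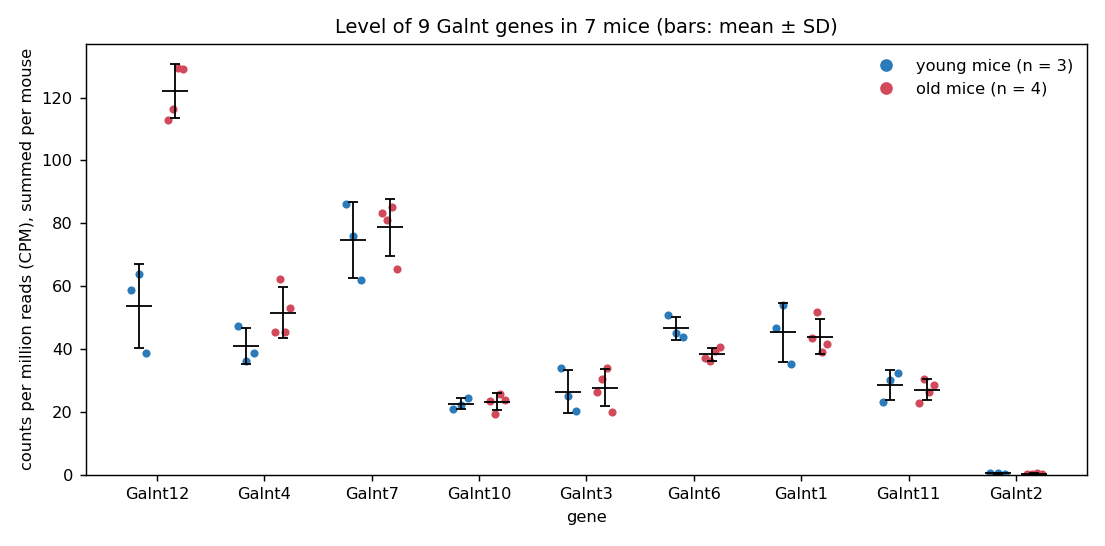
Counts per 1000000 reads (CPM), summed per mouse, of each of the 9 Galnt genes on the x axis, with 1 point per mouse (blue, 3 young; red, 4 old) and bars for the mean ± SD. Galnt12 is at 38.7 to 63.9 in the young mice and 113 to 130 in the old, Galnt6 is a little lower in every old mouse, and the other 7 genes overlap between ages.

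More cells held a Galnt12 read in every old mouse than in any young one. A read was found in 74.4, 76.5 and 63.3% of the kept cells of young mice 1 to 3 and in 86.8, 93.5, 92.1 and 90.7% of those of old mice 1 to 4. After every cell was thinned to 100000 reads, which left out 104 shallower cells, the shares were 67.6 ± 8.12% (SD, n = 3) and 90.3 ± 1.63% (SD, n = 4). Among cells with a read, the median level was 48.1 to 61.3 CPM in the young and 95.7 to 106 CPM in the old mice. Both the share of cells and the level within them were therefore higher in each old mouse than in any young one.

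The 3 codes in the cell names that were shared by a young and an old mouse gave the same direction. Since every old mouse lay above every young mouse in Galnt12, this direction was nearly given in advance. The values by code are therefore a description and no further support. These codes, marked LR, each cover 384 cells, which is the number of cells the methods give per sequencing lane. Galnt12 was 65.3 CPM in young mouse 2 and 113 CPM in old mouse 1 under the code they share, a ratio of 1.73. Under the next it was 58.7 CPM in young mouse 1 and 130 CPM in old mouse 3, a ratio of 2.21. Under the third it was 62.8 CPM in young mouse 2 and 116 CPM in old mouse 2, a ratio of 1.86. With the code as a block the log2 fold change was 1.00 (SE 0.11), young mouse 2 entering under both of its codes. Young mouse 3, the lowest in Galnt12, and old mouse 4 each had a code of their own, so their code and their mouse cannot be told apart.

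Summed markers of each cell type were set beside these values, and their ranges overlapped between ages for every list. ISC markers (1 of 20 higher on average in old mice) ranged from 19661 to 24227 CPM in the young and from 15665 to 25344 CPM in the old mice. Most of this sum was Olfm4, at 13243 to 17527 and 11026 to 19691 CPM, so its overlap says little about the other genes of the list. Lgr5 ranged from 335 to 454 CPM in the young and from 172 to 363 CPM in the old mice. Summed Paneth markers (10 of 12 higher) ranged from 8419 to 28411 CPM in the young and from 14606 to 31937 CPM in the old mice. Goblet markers (8 of 8 higher) ranged from 410 to 1157 and from 622 to 2897 CPM, and enterocyte markers (12 of 12 higher) from 942 to 1187 and from 894 to 2585 CPM. Enteroendocrine markers (6 of 8 higher) ranged from 8.59 to 146 and from 90.3 to 571 CPM. In the ISC-led cells alone, the Paneth sum was 978 to 1092 CPM in the young and 765 to 1024 CPM in the old mice. The goblet sum there was 84.9 to 109 and 93.8 to 130 CPM, the enterocyte sum 712 to 832 and 650 to 1027 CPM, and the enteroendocrine sum 0.887 to 149 and 0.841 to 453 CPM. In those cells Galnt12 was 57.2, 61.9 and 35.5 CPM in the young and 113, 118, 126 and 129 CPM in the old mice, with a log2 fold change of 1.29 (SE 0.20). These 1550 cells were most of the 1836 kept, so their value was bound to lie near the 1.24 of all cells. The ISC sum in them was 20599 to 25230 CPM in the young and 17208 to 26484 CPM in the old mice. The part of the marker sums in the difference was not tested. Sums of distal small-intestinal markers overlapped between ages, at 282 to 373 CPM in the young and 202 to 399 CPM in the old mice.

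None of the 8 members tested by age passed, Galnt12 being given no test. In the edgeR quasi-likelihood test with Benjamini-Hochberg adjustment, 0 of 20957 genes passed an adjusted p of 0.05 (0.0%), although 1098 had an unadjusted p under 0.05, and DESeq2 called 177 of 20867 (0.848%). All 9 members passed the filter on low counts, and of the 8 others neither tool called any and none had an unadjusted edgeR p under 0.05. The middle of their log2 fold changes was 0.05, against 0.01 over all genes tested. Sums of these 8 genes, each divided by its exon length, were 56.6 ± 5.65 CPM per kb (SD, n = 3) in the young and 57.2 ± 3.21 CPM per kb (SD, n = 4) in the old mice.

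Galnt4 (ENSMUSG00000090035, chr10:99108159-99113247, plus strand) came nearest to Galnt12 in direction. It was at 47.3, 36.3 and 38.9 CPM in young mice 1 to 3 and at 45.4, 62.4, 45.5 and 53.2 CPM in old mice 1 to 4, so young mouse 1 overlapped the old mice. The log2 fold change was 0.39 (SE 0.18, adjusted p = 0.969 in edgeR). The share of cells with a Galnt4 read was 79.8 ± 4.19% in the young and 88.6 ± 4.02% in the old mice, with no overlap. In an exact two-sided permutation test over the 35 divisions of the mice, the difference gave p = 0.0286, the smallest the design allows, and 0.229 after adjustment over the 8 members. None of the 8 passed in this test, with adjusted p from 0.229 to 0.971. A gene alone at the smallest p cannot fall below 0.229 after this adjustment. For a single member the outcome was therefore fixed in advance, and no conclusion is drawn from it. At 100000 reads a cell the exact p for Galnt4 was 0.0571, with shares of 71.8 to 77.8% in the young and 80.7 to 92.2% in the old mice. The gene lies within Poc1b, with which it shares 8.25% of its exon bases, and Poc1b stood at 38.7 CPM.

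Galnt6, an enzyme of the same subfamily as Galnt3, was the only member other than Galnt12 whose ages did not overlap in CPM, and it was lower in the old mice. Its values were 50.9, 45.2 and 43.9 CPM in young mice 1 to 3 and 37.2, 36.3, 39.3 and 40.8 CPM in old mice 1 to 4. Such a lack of overlap, in either direction, was found in 5.92% of all genes tested, and the log2 fold change of -0.23 (SE 0.15) had an adjusted p of 1 in edgeR. In ISC-led cells the values were 42.9 to 46.9 CPM and 28.9 to 35.4 CPM, a log2 fold change of -0.43 (SE 0.16, adjusted p = 0.938). Galnt6os, an antisense gene, overlaps 11.4% of the Galnt6 exon bases and stood at 4.04 CPM. The sources used here do not say whether counting used strand, so reads in that overlap could not be assigned with certainty.

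Galnt7, which adds GalNAc to peptides that already carry it, was the second most abundant member per exon length. It held 86.1, 76.1 and 62.0 CPM in young mice 1 to 3 and 83.2, 81.1, 85.1 and 65.5 CPM in old mice 1 to 4, with fully overlapping ranges. Galnt10, of the same preference, was at 21.1 to 24.5 CPM in the young and at 19.4 to 25.8 CPM in the old mice. Among the enzymes that start on bare peptides, Galnt1 ranged from 35.4 to 53.9 CPM in the young and from 39.1 to 51.8 CPM in the old mice. Galnt3 ranged from 20.4 to 33.9 and from 20.1 to 33.9 CPM. Galnt11, an enzyme known to glycosylate Notch receptors and members of the low-density lipoprotein receptor family, ranged from 23.1 to 32.4 and from 22.7 to 30.5 CPM. The log2 fold changes of these 5 genes lay between -0.02 (Galnt11, SE 0.18) and 0.13 (Galnt7, SE 0.17). With standard errors of 0.17 to 0.24, small changes in them would not have been detectable.

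Galnt2 was close to the floor, at 0.281 to 0.473 CPM in all mice and 245 reads in all. Its value is uncertain, because 90.0% of its exon bases also belong to Gm20388, an annotated readthrough gene that had 0 reads, and a counter that drops ambiguous reads would lose those bases. No comparison of Galnt2 with the other members is drawn from this level.

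Divided by exon length, the members could be set in an order, which depends on the length used. The length here joins all annotated exons of a gene. It was 2288 bases for Galnt12, the same as its transcript with the longest coding sequence. For Galnt7 it was 5253 against 4313 bases, and for Galnt11 6853 against 2552 bases. An order by transcript length was not computed, and the order below holds for joined exons. In the young mice it ran from Galnt12 (23.5 ± 5.81 CPM per kb, SD, n = 3) to Galnt7 (14.2 ± 2.31), Galnt6 (12.0 ± 0.96), Galnt1 (8.21 ± 1.69), Galnt4 (8.03 ± 1.13), Galnt3 (6.04 ± 1.56), Galnt11 (4.17 ± 0.72) and Galnt10 (3.79 ± 0.29), with Galnt2 left out. On this scale Galnt12 was above Galnt7 in 3 of 3 young mice, and their ranges did not overlap. Not divided by length, Galnt7 was the higher in these 3 mice, at 86.1, 76.1 and 62.0 CPM against 58.7, 63.9 and 38.7 CPM. Galnt1 and Galnt4 could not be ordered, with Galnt1 higher in 1 of 3 mice. Galnt3 lay above Galnt10 in 3 of 3 mice with no overlap, and Galnt11 overlapped both. In the old mice Galnt12 stood at 53.3 ± 3.73 CPM per kb (SD, n = 4), followed by Galnt7 (15.0 ± 1.71) and Galnt4 (10.1 ± 1.58). Galnt4 and Galnt6 overlapped there, Galnt4 being higher by its mean but in only 1 of 4 mice.

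**Figure D2:**
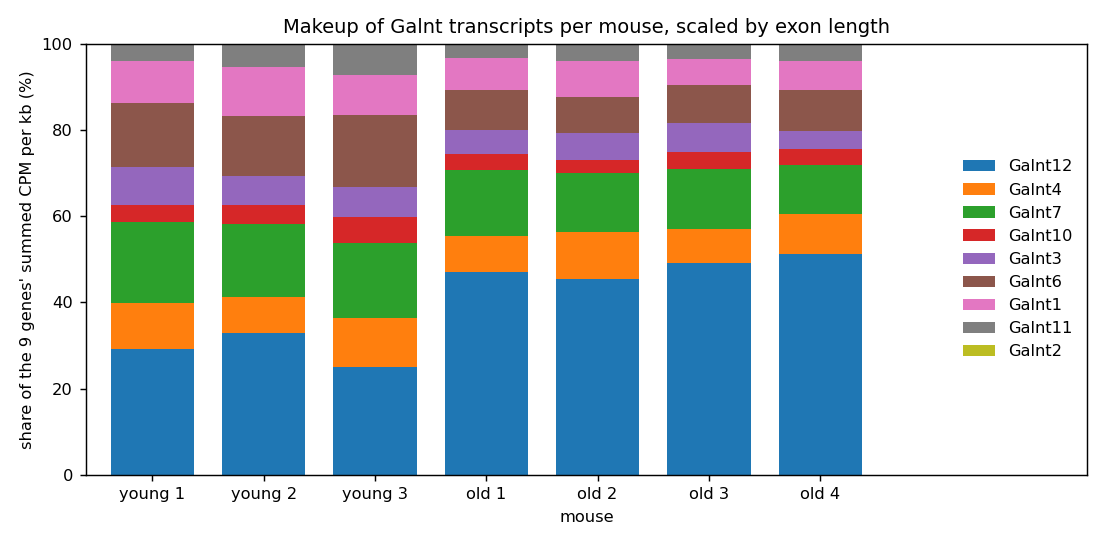
Share of each gene in the summed CPM per kb of the 9 Galnt genes, in percent, as 1 stacked bar per mouse. Galnt12, at the base of each bar, takes 25.0 to 32.9% in the young and 45.4 to 51.2% in the old mice.

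Galnt12 made up a larger part of the family in the old mice. Its share of the length-scaled sum was 29.3, 32.9 and 25.0% in young mice 1 to 3 and 47.0, 45.4, 49.2 and 51.2% in old mice 1 to 4. The share of Galnt6 was 15.2 ± 1.51% in the young and 8.97 ± 0.51% in the old mice, and that of Galnt7 17.7 ± 0.86% and 13.6 ± 1.61%. These shares sum to 100%, so a higher share of Galnt12 lowers those of the other genes whether or not their own levels change. The 8 other members summed to 56.6 CPM per kb in the young and 57.2 in the old mice. Galnt7 itself was not lower in the old mice, at 14.2 and 15.0 CPM per kb, whereas Galnt6 was at 12.0 and 9.91. A cell of 100000 reads had a read from a median of 5 to 6 of the 9 genes in the young mice and of 6 to 7 in the old mice. This count includes Galnt12 itself. Its means overlapped between ages, at 5.40 to 5.82 genes in the young and 5.75 to 6.37 genes in the old mice.

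**Figure D3:**
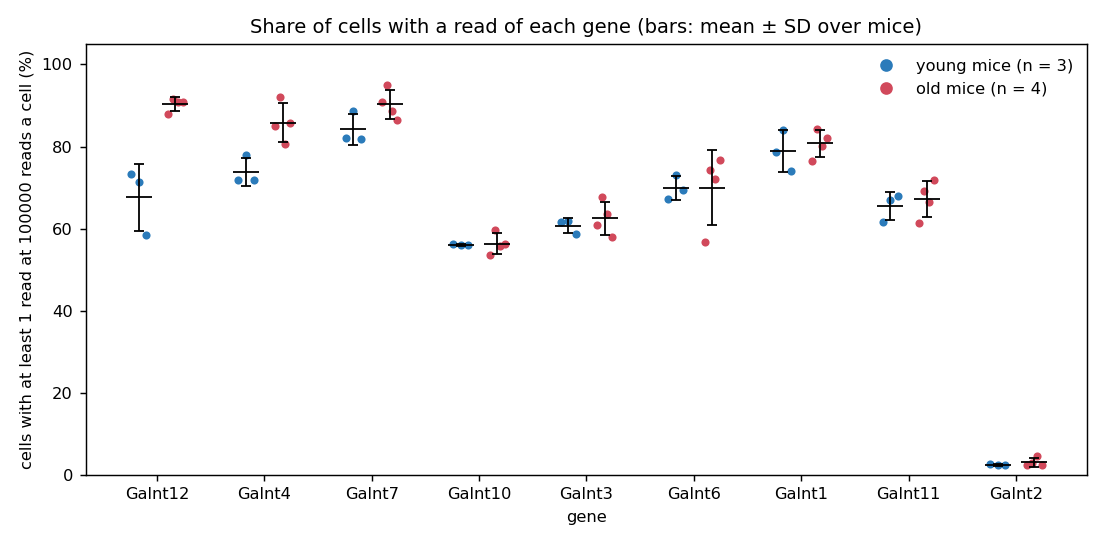
Share of cells, in percent, with at least 1 read of each gene after thinning to 100000 reads a cell, with 1 point per mouse (blue, 3 young; red, 4 old) and bars for the mean ± SD. Galnt12 and Galnt4 are higher in every old mouse than in any young one, while Galnt2 has a read in 2.27 to 4.55% of cells.

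Goblet-led cells, the mucin producers of the gut, held more of 6 of the 9 members than ISC-led cells of the same mice. The comparison used sums per mouse and class with the mouse as a block, and 434 of 20308 genes (2.14%) passed in the higher direction, against 2.07% with total-count scaling, where 5 members passed. Goblet-led rests on 3 to 13 cells a mouse, and 22 of the 53 cells were led by a margin of less than 1 log2 unit. The median cell of the class still scored 6.16 for ISC markers against 8.16 for goblet markers, as mean log2(CPM + 1) over the list. The class is therefore a range of cells along a score and not a sorted type.

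Among the 9 members, Galnt7 had the largest log2 fold change between goblet-led and ISC-led cells. The exception was where the leading list had to be ahead by at least 1, with Galnt6 at 2.06, Galnt10 at 1.81 and Galnt7 at 1.74. Galnt7 was at 211, 236, 175, 388, 172, 210 and 224 CPM in the goblet-led cells of young mice 1 to 3 and old mice 1 to 4. In their ISC-led cells it was at 51.3 to 81.0 CPM. The log2 fold change was 1.75 (SE 0.18, adjusted p = 1.6e-05 in edgeR), with higher values in 7 of 7 mice. Galnt10, which shares its preference for glycosylated peptides, was at 29.9 to 73.9 CPM against 17.4 to 23.5 CPM (log2 fold change 1.46, SE 0.24). Both members of this type thus were higher in every mouse.

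Galnt6 rose in goblet-led cells by 1.55 on the log2 scale (SE 0.24), Galnt12 by 1.33 (SE 0.19, adjusted p = 0.00043 in edgeR), Galnt3 by 1.07 (SE 0.24) and Galnt4 by 0.77 (SE 0.20, adjusted p = 0.0494). Each was higher in 7 of 7 mice. Galnt4 fell short with total-count scaling (adjusted p = 0.0607 in edgeR), without any 1 mouse other than old mouse 3 (0.0593 to 0.144), and with no filter on low counts (0.091). Galnt3 fell short without young mouse 2 (adjusted p = 0.061 in edgeR) or old mouse 4 (0.0585). Where the leading list had to be ahead by at least 1 log2 unit, both were lost (0.0903 for Galnt3 and 0.112 for Galnt4) and 4 members passed. For Galnt12 the goblet-led values were 87.0, 187 and 132 CPM in young mice 1 to 3 and 351, 200, 246 and 343 CPM in old mice 1 to 4. Galnt1 (0.35, SE 0.26), Galnt11 (-0.69, SE 0.34) and Galnt2 (0.69, SE 0.90) did not pass. The 6 that passed include enzymes of both substrate types.

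**Figure D4:**
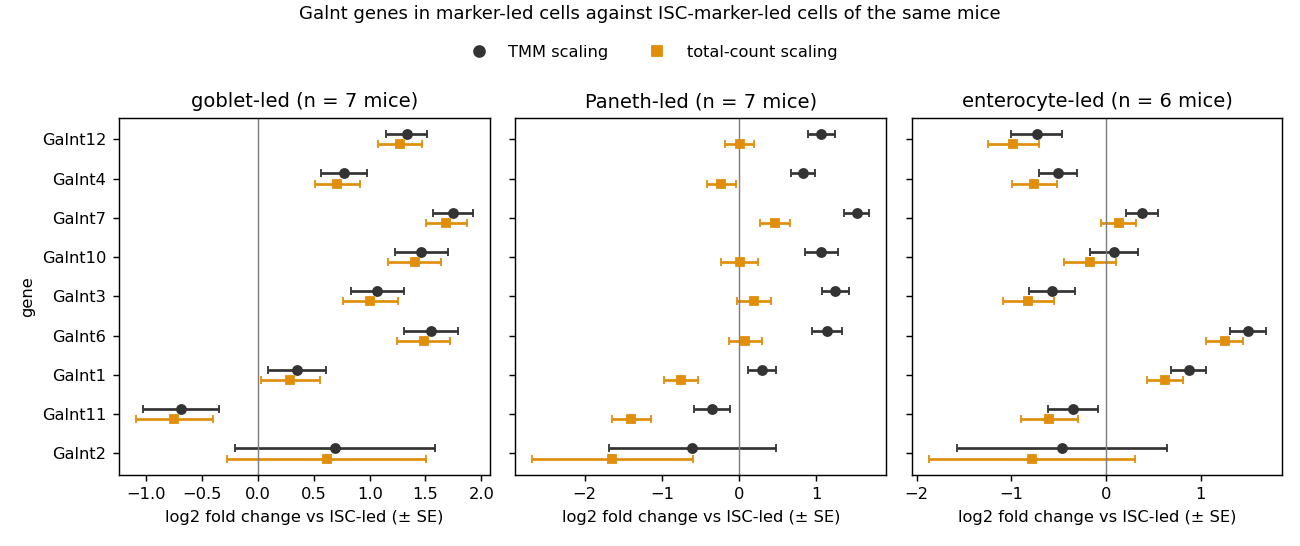
Log2 fold change of each Galnt gene in goblet-led (7 mice), Paneth-led (7 mice) and enterocyte-led cells (6 mice) against ISC-led cells of the same mice, with bars of ± 1 SE. Black circles use TMM scaling and orange squares total-count scaling: the 2 lie 0.06 apart for the median gene in goblet-led cells but 1.04 apart in Paneth-led cells, where Galnt12 moves from 1.06 to 0.01.

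In Paneth-led cells the result depended on the scaling. Paneth cells secrete antimicrobial peptides, and the 12 Paneth markers took 33.2% of the reads of these cells against 0.0984% in ISC-led cells. With TMM scaling, which sets the bulk of genes level, 6 of 9 members were higher in Paneth-led cells (background 6.4% of 20169 genes) and none was lower (background 7.57%). They were Galnt7 (1.53, SE 0.16), Galnt3 (1.25, SE 0.18), Galnt6 (1.14, SE 0.20), Galnt12 (1.06, SE 0.17), Galnt10 (1.06, SE 0.21) and Galnt4 (0.83, SE 0.15). With total-count scaling, added after the data were seen, the median of all genes moved from -0.19 to -1.23. Then 1 member was higher, Galnt7 (0.46, SE 0.20, adjusted p = 0.0425 in edgeR; background 2.83%). Galnt11 (-1.39, SE 0.25) and Galnt1 (-0.76, SE 0.22) were lower, against 59.2% of all genes called lower, and Galnt4 turned to -0.23 (SE 0.19).

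Values in CPM show the same for Galnt12. It was at 76.4, 70.4, 58.9, 69.2, 113, 119 and 96.5 CPM in Paneth-led cells and at 57.2, 61.9, 35.5, 113, 118, 126 and 129 CPM in ISC-led cells of young mice 1 to 3 and old mice 1 to 4. The Paneth-led cells were the higher in all 3 young mice and the lower in all 4 old mice. Galnt7 was the higher in Paneth-led cells in 6 of 7 mice. Relative to the bulk of genes the 6 members were higher in Paneth-led cells, and relative to all reads of the cell only Galnt7 was called higher.

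Enterocyte-led cells, the absorptive class, held more Galnt6 and Galnt1 than ISC-led cells. They numbered 3 to 40 in the 6 mice compared, since young mouse 2 had only 2. Galnt6 was at 145 and 70.7 CPM in young mice 1 and 3 and at 83.8, 87.1, 69.4 and 73.3 CPM in old mice 1 to 4, against 28.9 to 46.9 CPM in the ISC-led cells. Its log2 fold change was 1.5 (SE 0.19, adjusted p = 5.4e-05 in edgeR), and Galnt1 followed with 0.87 (SE 0.18, adjusted p = 0.0042). These 2 of 9 members passed in the higher direction, against 8.6% of 19939 genes. Both were higher in 6 of 6 mice and passed under total-count scaling too, where the background was 6.77%.

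No member was called lower in enterocyte-led cells with TMM scaling. Galnt12 was at 40.8 and 45.8 CPM in young mice 1 and 3 and at 59.8, 55.8, 37.1 and 35.6 CPM in old mice 1 to 4, below the ISC-led cells in 5 of 6 mice. Its log2 fold change was -0.73 (SE 0.27, adjusted p = 0.07 in edgeR), and without young mouse 3 it was called lower (-1.01, adjusted p = 0.009). With total-count scaling Galnt12 (-0.98, SE 0.27, adjusted p = 0.014), Galnt3 (-0.82, SE 0.27) and Galnt4 (-0.76, SE 0.24) were called lower, where 19.5% of all genes were. Galnt7, Galnt10, Galnt11 and Galnt2 did not pass under either scaling. Galnt7 was called higher by DESeq2 (adjusted p = 0.01) and after thinning to 100000 reads (0.45, adjusted p = 0.0406 in edgeR). Goblet-led cells had more Galnt12 than ISC-led cells in every mouse, and enterocyte-led cells had less in 5 of 6.

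The ages were also set side by side within each class. In goblet-led cells the Galnt12 means were 135 ± 50.2 CPM (SD, n = 3) in the young and 285 ± 74.2 CPM (SD, n = 4) in the old mice, with no overlap. Paneth-led cells held 68.6 ± 8.89 CPM and 99.3 ± 22.1 CPM, and old mouse 1 fell among the young. In enterocyte-led cells the values of the young mice, 40.8 and 45.8 CPM, lay within the range of the old mice. Whether the age difference of Galnt12 differed between classes was not tested, as it rests on few cells and on the contrast by which the gene was chosen. Galnt6, by comparison, was lower in all old mice in ISC-led cells but overlapped between ages in goblet-led, Paneth-led and enterocyte-led cells. Galnt4 did not overlap in Paneth-led cells, at 25.8 to 30.8 CPM in the young and 36.7 to 64.1 CPM in the old mice. It overlapped in the other classes. These cases were picked out from all 9 members in each class, and the differences within a class were not tested. The share of all genes without overlap was not computed within a class. Over all kept cells it was 5.92% of the genes tested.

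**Figure D5:**
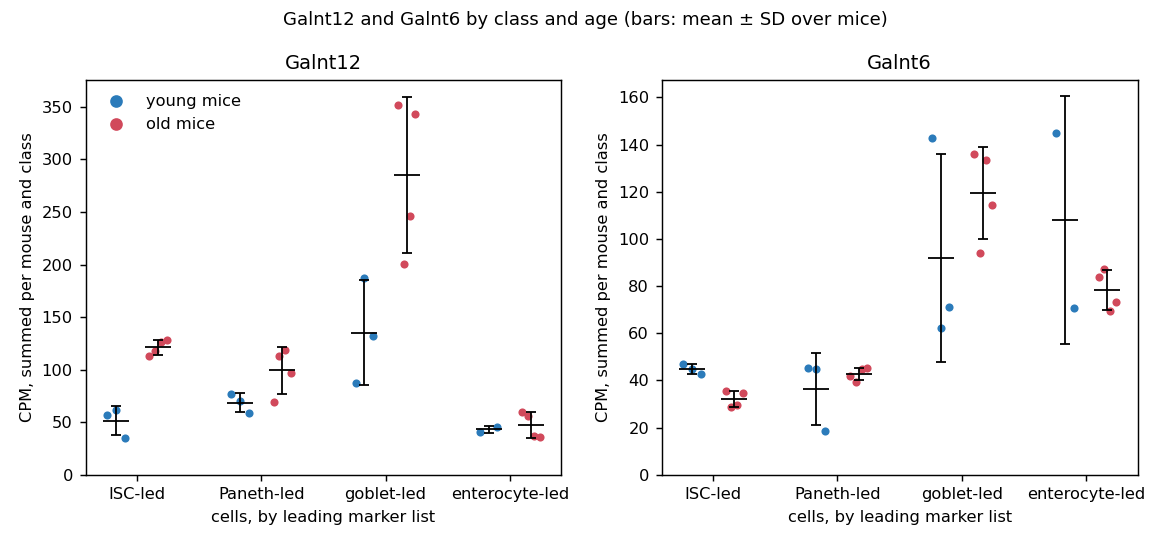
Counts per 1000000 reads (CPM) of Galnt12 (left) and Galnt6 (right), summed per mouse and class, for ISC-led, Paneth-led, goblet-led and enterocyte-led cells, with 1 point per mouse (blue, young; red, old) and bars for the mean ± SD. Enterocyte-led cells have 2 young mice. Galnt12 is at 113 to 129 in ISC-led cells of old mice but at 35.6 to 59.8 in their enterocyte-led cells, and Galnt6 is highest in goblet-led and enterocyte-led cells.

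Of the 10 other family genes, 2 passed the low-count filter. Galnt5 stood at 4.90 ± 1.13 CPM in the young and 7.69 ± 2.47 CPM in the old mice (log2 fold change 0.70, SE 0.33, adjusted p = 0.969 in edgeR). It was higher in goblet-led and Paneth-led cells in these values, at 27.9 to 150 CPM in the former and 16.5 to 75.7 CPM in the latter, against 0.982 to 3.69 CPM in ISC-led cells. Galntl6 was at 0.081 to 2.31 CPM over the mice. It was at 1.33 to 18.1 CPM in goblet-led and 0.485 to 6.98 CPM in Paneth-led cells. In ISC-led cells it was at 0 to 2.05 CPM, and these values rest on few reads. The remaining 8 did not exceed 0.473 CPM in any mouse, and Galnt17 had 0 reads.

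The rest of the pathway showed few differences with age. Of the 11 core and extension enzymes tested, 7 had a higher and 4 a lower mean level in the old mice, 0.33 being the middle log2 value, and edgeR called none. Gcnt3, which makes mucin-type core 2 and core 4 branches, was the exception by DESeq2. It was at 13.1, 13.0 and 9.70 CPM in the young and at 23.0, 25.2, 20.5 and 28.5 CPM in the old mice, with no overlap. Its log2 fold change was 1.08 (SE 0.20), with an adjusted p of 0.251 in edgeR and of 0.00017 in DESeq2. Gcnt1, its relative, had the largest value of the list (1.59, SE 0.63) but stood below 0.5 CPM in every mouse. B4galnt3 (-0.44, SE 0.29) and B4galnt2 (-0.30, SE 0.22), which add terminal GalNAc, had the lowest.

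No gene of the other lists was called. Of 8 capping enzymes tested, 4 were higher and 4 lower, between St6galnac4 (2.10, SE 0.62, adjusted p = 0.694 in edgeR) and St3gal4 (1.38, SE 0.64) at the top and St3gal2 (-0.81, SE 0.44) and St6galnac6 (-1.09, SE 0.96) at the bottom. Of 8 genes that supply UDP-GalNAc, 6 were higher and 2 lower. The UDP-galactose carrier Slc35a2 (0.48, SE 0.25) was among the higher, and Galk2 (-0.01, SE 0.17) and Gnpnat1 (-0.04, SE 0.17) had the lowest values. Of 7 mucins, 4 were higher and 3 lower. Muc2, the secreted goblet cell mucin, varied from 111 to 278 CPM in the young and from 171 to 1043 CPM in the old mice (1.28, SE 0.62), and Muc1 had 0.81 (SE 0.76). Muc3a (-0.23, SE 0.40) and Muc20 (-0.26, SE 0.28) had the lowest values of the list. The medians of these 3 lists were -0.09, 0.06 and 0.03, and DESeq2 called no gene of theirs either.

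Across cells of the same mouse Galnt12 varied with the level of the ISC list and of S-phase genes. Pearson correlations in log2(CPM + 1) averaged 0.29 over the 7 mice for ISC markers (0.01 to 0.60) and 0.25 for S-phase genes (0.10 to 0.34), and 0.17 for the logarithm of the read count of the cell. These points share library and depth, so the values are a description. They were not particular to Galnt12. For ISC markers Galnt4 averaged 0.30 and Galnt11 0.29, though Galnt6 averaged 0.04. For S-phase genes Galnt1 averaged 0.35 and Galnt3 0.23, though Galnt7 averaged 0.07. Among the members, Galnt4 was the one most like Galnt12 (mean 0.26, 0.07 to 0.47), followed by Galnt1 (0.22). Over 12560 genes with a read in at least 20% of cells, the 5 most like Galnt12 were Ddx39b (0.32), Hspa4 (0.32), Rpn2 (0.32), Srebf2 (0.31) and Map3k15 (0.31). These genes act in RNA export, protein folding, N-glycosylation, sterol control and kinase signalling, and their log2 fold changes by age lay between 0.03 and 0.22.

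Of the nearest tested protein-coding genes on chromosome 4, Anks6 lies 34.5 kb before Galnt12. It was at 1.94, 1.73 and 1.21 CPM in young mice 1 to 3 and at 2.31, 8.07, 8.46 and 6.71 CPM in old mice 1 to 4, which do not overlap. The log2 fold change was 2.04 (SE 0.47, adjusted p = 0.38 in edgeR), against 1.82% of all genes that lay higher in every old mouse. Coro2a (0.21, SE 0.25) and Tbc1d2 (-0.21, SE 0.34), farther out on that side, overlapped between ages. On the other side, Col15a1 (0.09, SE 1.12), Tgfbr1 (-0.24, SE 0.17) and Alg2 (0.01, SE 0.18) did not pass the test, Tgfbr1 being lower in every old mouse.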

How the data were processed

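Lgr5-GFP-high crypt cells were sorted into plates and sequenced as single-end Smart-seq2-type libraries. The deposited table holds whole-number read counts per gene and cell, which the authors made with HISAT2 on GRCm38, and the submitters' processing notes name HTSeq. No source used here states versions, annotation or strand setting, and there were no molecular identifiers, so intervals and tests cover reads and not molecules. Gene names and positions came from GENCODE M21 (55230 of 55471 IDs matched). Cells with at least 1000 detected genes were summed per mouse. Counts were tested with edgeR 4.0.16 (quasi-likelihood, TMM, filterByExpr, Benjamini-Hochberg over all genes), with DESeq2 1.42.0 and limma 3.58.1 as alternatives. The edgeR step was also run on simulated counts. These held no marker-driven difference in scale between classes, so they do not bear on the choice of scaling. SEs were taken from the F statistic. Where nothing names separate litters or sorting days, p-values cover the spread between these mice. Cells were classed by the list with the highest mean log2(CPM + 1) of 8, with at least 3 cells per mouse and class. Shares of cells were compared by exact permutation over mice. Doublets were not called. Coding sequences were aligned with Biopython 1.88.

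The members and gene lists were chosen with earlier results of these data known. Named were all members, the 2 highest and 2 lowest genes by log2 fold change of each pathway list, the 5 genes most correlated with Galnt12 and its 3 nearest tested genes on each side. Gcnt3 was named under that rule too. The value of 1 gene under that rule is not reported here. St6galnac2 and Muc17 were not found in the table and are not analysed here.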

Additional observations from a re-analysis of the deposited data

Results flagged for a closer look

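Among the 36 sets of 4 old mice examined for a value standing apart by Dixon's ratio, 2 were flagged, and chance flags about 5% of such sets. The share of cells with a Galnt1 read was 79.4% in old mouse 1, against 86.8 to 88.2% in the other 3 old mice. The Galnt10 share of the length-scaled family sum was 2.91% in old mouse 2, against 3.64 to 3.77% in the other 3.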

How the results depend on the processing

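The log2 fold change of Galnt12 by age stayed between 1.00 (LR code as a block) and 1.35 (without young mouse 2) over 19 alternatives, and the difference in its share of cells between 15.3 and 23.2 percentage points. The number of all genes called by age, 0 in edgeR, moved more: 177 with DESeq2, 2 with limma voom, 22 with no filter on low counts, 15 after thinning, 18 with cells weighted equally, 2 with the replicate block of mouse numbers, 1 with the LR code as a block and 0 to 8 without 1 mouse each. That count was 8 without old mouse 1 and 1 without young mouse 1 or old mouse 4. Same-numbered mice did not deviate together (correlations of -0.02, 0.11 and -0.11), so the numbers were not taken as pairs, and the replicate block left Galnt12 at 1.22. Values near 0 changed sign: Galnt1 by age to -0.00061 with upper-quartile scaling, -0.043 with total-count scaling, -0.0046 with cells weighted equally, -0.14 with the LR code as a block and -0.13 to 0.12 without 1 mouse each. Galnt11 became 0.021 in ISC-led cells only and lay between -0.14 and 0.091 without 1 mouse each, Galnt3 became -0.045 with cells weighted equally and lay between -0.034 and 0.36 without 1 mouse each, and Galnt10 became -0.095 with cells weighted equally. None of the other 8 members was called by age under any of these alternatives.

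Total-count scaling, chosen after seeing the data, moved the Paneth-led comparison from 6 members higher to 1, with 2 lower and with Galnt1 at -0.76 and Galnt4 at -0.23. In enterocyte-led cells it called 3 members lower and put Galnt10 at -0.17. Galnt12 was the 1 member called lower there with the leading list ahead by at least 1 and after thinning, which also left out old mouse 1 (Galnt10 then at -0.040), and 0 to 1 were without 1 mouse each. Without 1 mouse each, Galnt10 lay between -0.046 and 0.22 and Galnt2 between -1.93 and 0.13. In goblet-led cells 4 to 6 members were called higher without 1 mouse each, and Galnt2 turned to -0.97 with the leading list ahead by at least 1. Galnt2 held 245 reads in all, and the goblet-led and enterocyte-led classes rest on few cells per mouse.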
